A study of Mus musculus with 29 samples.

Results

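The amino acid stress and unfolded protein response was followed through 39 genes, picked by symbol from the 28229 genes of the deposited table. All 39 passed the filter on low counts, which kept 14935 genes for testing. The cells were NMM, a mouse melanoma line with mutant NRAS, grown in culture, and each library is mRNA of cells that met a first and then a second stimulus. The members were divided into the ATF4 arm (29 genes), the stress sensors (4 genes) and the ER chaperone arm (6 genes). The libraries came in 7 sequences of 4, which differ in how long the first stimulus lasted (2, 6, 12 or 24 h) and share a second stimulus of 24 h. Cells that ended with interferon gamma (IFNγ, 100 ng/ml) received either medium or TGFβ (transforming growth factor beta, at 10 ng/ml) first. Cells that ended with TGFβ received medium or IFNγ first. Cells that ended with medium received TGFβ, IFNγ or medium first, and the last of these, medium then medium, is called the medium group here. A further single library received medium for 24 h and then both cytokines together. PBS washes separated the stimuli, 5 in all, every library carries the same NRAS mutation, and no second cell line or untransformed control is part of the comparison. The 4 durations are the replicates of a sequence, so p-values measure the spread between these libraries, which may be technical in part.

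The ATF4 arm is the transcriptional output of the integrated stress response. Kinases such as GCN2 (Eif2ak4), which senses uncharged tRNA, and PERK (Eif2ak3), which senses unfolded protein in the endoplasmic reticulum (ER), phosphorylate eIF2α, general translation falls and the transcription factor ATF4 is translated more, which raises genes for amino acid synthesis, uptake and tRNA charging. The ER chaperone arm is driven mainly by ATF6 and by XBP1, whose mRNA is spliced by IRE1 (Ern1), and it raises chaperones such as BiP (Hspa5). mRNA levels do not report the translation of Atf4, eIF2α phosphorylation or Xbp1 splicing.

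Promoter windows of 250 bases before the gene start were taken from RefSeq on GRCm38.p6 and matched 35 of the 39 members in 40 windows; Atf6, Nars, Slc7a5 and Wars had none. The C/EBP-ATF response element that ATF4 binds was searched as TGATGNAA on both strands. It was found in 9 of the 26 ATF4 arm genes with a window and in 1 of the 6 ER chaperone genes, Herpud1, against 3.45% of all 32817 windows. The ER stress response element, read by ATF6 with NF-Y, was searched on both strands as CCAAT followed, after 9 bases of any kind, by CCACG, and was present in Hspa5 and Hsp90b1, against 0.113% of all windows. Windows of 30 bases around these matches are printed for members that the results turn on, each 5′ to 3′ on the strand that reads the motif, with the motif in capitals.
Atf3: cgcggacttggTGATGCAAgtgcgagaagg (chr1:191183425-191183454, plus strand)
Asns: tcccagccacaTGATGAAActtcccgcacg (chr6:7693214-7693243, minus strand)
Chac1: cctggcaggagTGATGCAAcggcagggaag (chr2:119351038-119351067, minus strand)
Gars: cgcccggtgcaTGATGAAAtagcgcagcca (chr6:55037960-55037989, minus strand)
Slc7a11: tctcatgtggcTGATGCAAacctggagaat (chr3:50443661-50443690, minus strand)
Herpud1: ggggtgcgggcTGATGCAAcccgccgtggt (chr8:94386306-94386335, minus strand)
Hspa5: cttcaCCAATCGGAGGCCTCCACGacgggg (chr2:34772020-34772049, plus strand)
Hsp90b1: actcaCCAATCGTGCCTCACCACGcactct (chr10:86705528-86705557, plus strand)
A match is a run of letters and not a site of binding, and the absence of a match covers this window only. On both strands, the interferon element, GAAA followed by GAAA after 2 bases of any kind, was found in 1 member, Ppp1r15a, against 2.97% of all windows. The XBP1 element TGACGTGG was found in 0 members, against 0.564%. Matches to different elements were counted separately and may overlap.

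Library totals lay between 17179530 and 23668015 counts, and levels are given as CPM, the counts scaled to a common library size with TMM factors. The lowest count of any member in any library was 71, for Ass1. Target genes of the stimuli followed the labels: Irf1 was at 465 to 532 CPM after medium then IFNγ, against 20.0 to 47.6 CPM in the medium group. Of the melanocyte markers analysed, Mitf (8.40 to 20.2 CPM) and Gpnmb (26.4 to 276 CPM) were expressed while Sox10 and Pmel stayed at or below 0.444 CPM, so the lineage label rests on few markers. Of the leukocyte markers, Ptprc, Csf1r and Lyz2 were at or near 0 in every library, while Cd14 (17.1 to 76.4 CPM) and Cd68 (2.84 to 6.18 CPM) were expressed; the list summed to 33.9 to 66.8 CPM after medium then IFNγ and 52.8 to 82.2 CPM in the medium group. Col3a1 and Dcn, which mark fibroblasts, were expressed, and the sum of 8 fibroblast and endothelial markers was 199 to 233 CPM after medium then IFNγ, 159 to 218 CPM after TGFβ then IFNγ, 493 to 626 CPM after medium then TGFβ, 374 to 702 CPM after TGFβ then medium and 583 to 1942 CPM in the medium group. The fibroblast marker Pdgfra (6.12 to 16.7 CPM) and the endothelial marker Cdh5 (5.45 to 24.5 CPM) were also expressed. Col1a1, Col1a2, Pecam1 and Kdr stayed at or below 1.16 CPM, and the part of these markers in the results was not tested. Mitochondrial genes held 0.676 to 0.814% of counts after medium then IFNγ and 0.841 to 1.24% in the medium group, and the part of this difference was not tested either. In these bulk samples, fewer cells of a state and less RNA per cell cannot be told apart.

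The medium library of 6 h stood apart from the other 3 and touches every comparison with medium. The SD over genes of its log2 difference from the other medium libraries was 0.518, and the same measure was 0.217 to 0.263 for those at 2, 12 and 24 h. There 23 of the 29 ATF4 arm genes were lower than in any other medium library, among them Mthfd2 (96.9 CPM, against 173, 190.4 and 186 CPM at 2, 12 and 24 h), while 5 were higher, among them Atf5. The share of all genes lower or higher there was not counted, so this is not shown to be particular to the arm. Counts of calls are therefore also given without this library. The comparisons with medium share the 4 medium libraries, so their values are set side by side and not counted as repeats of each other.

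**Figure D1:**
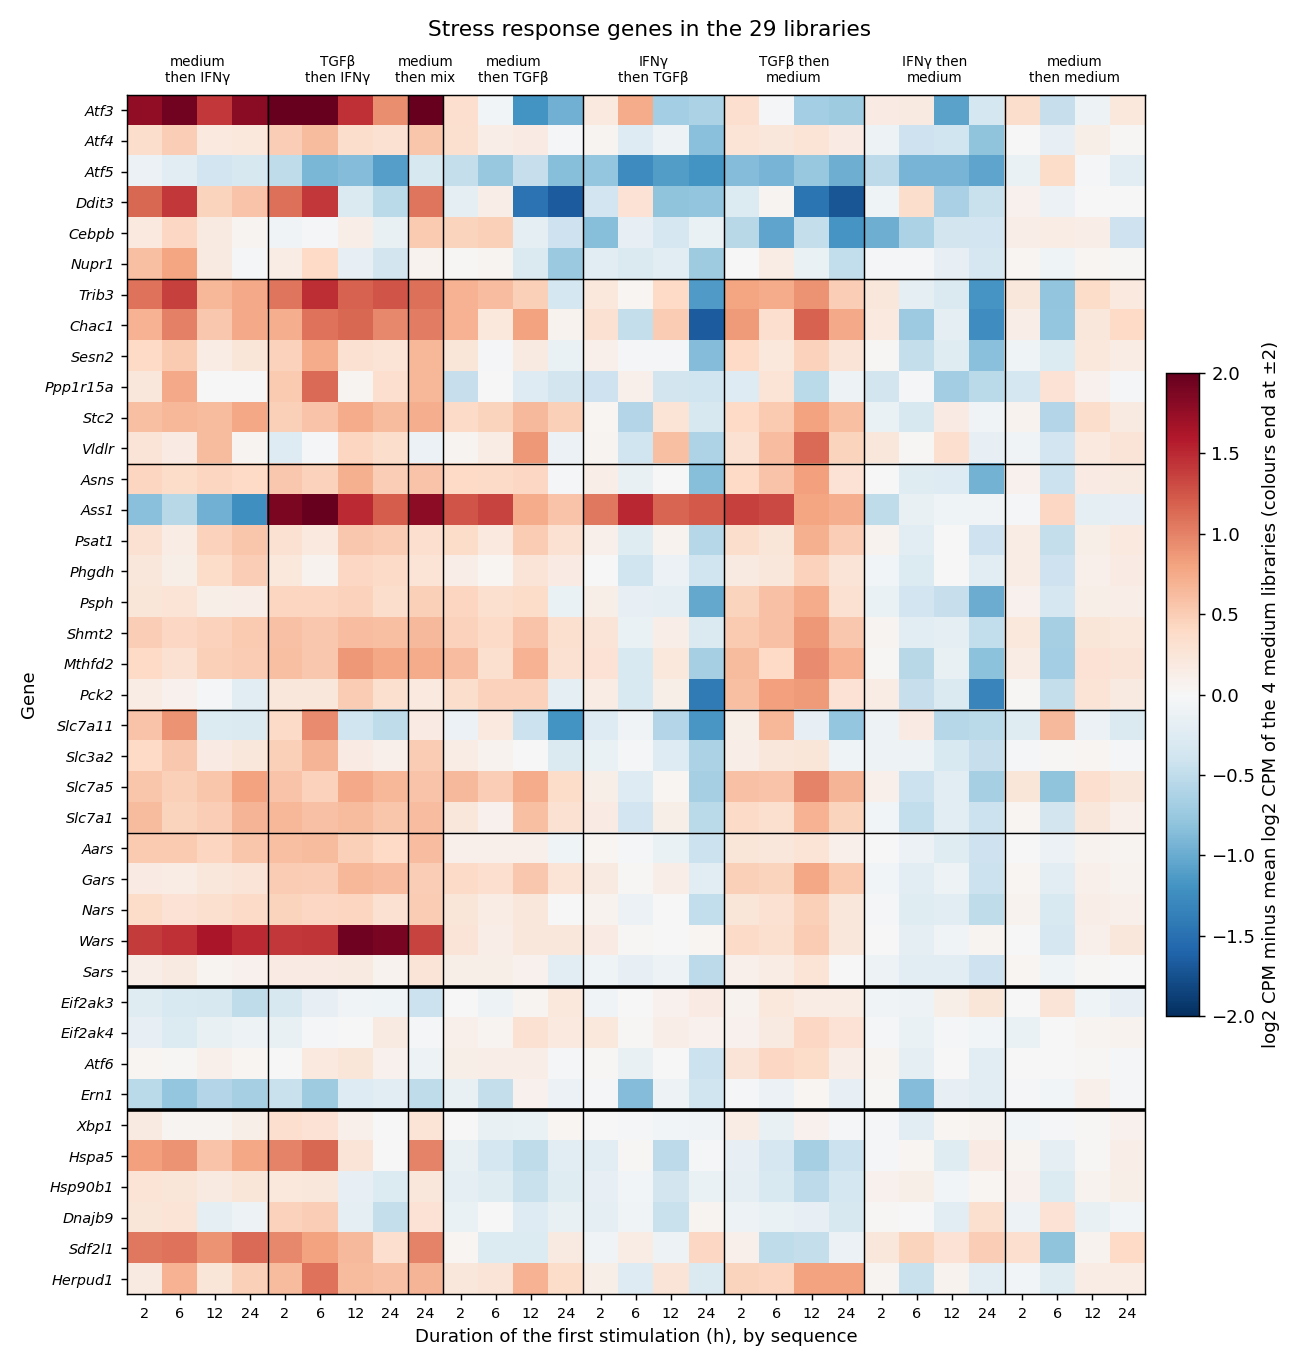
Levels of the 39 genes (rows, heavy lines between the arms, thin lines between gene groups) in the 29 libraries (columns, by sequence and by hours of the first stimulation), as log2 CPM minus the mean log2 CPM of the 4 medium libraries, with colours ending at ±2. Red marks higher levels; the IFNγ-ending libraries are red over most of the ATF4 arm, whereas Atf5 is blue in all stimulated libraries and Ass1 is blue only after medium then IFNγ and, faintly, in the libraries of IFNγ then medium and some medium libraries.

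What 24 h of IFNγ did to the response was read from medium then IFNγ against medium. Both arms were higher: 19 ATF4 arm genes were called higher and 2 lower (edgeR adjusted p below 0.05), and 4 of the 6 ER chaperone genes were called higher and 0 lower. Over all genes tested 22.7% were called higher and 21.2% lower. The median log2 fold change was 0.34 in the ATF4 arm and 0.32 in the ER chaperone arm, beside -0.0096 over all genes. Of the 4 stress sensors, 3 were called lower.

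Among the transcription factors of the arm, Atf3, an early stress factor downstream of ATF4, had the largest change of the 39. It was at 39.3, 43.7, 30.6 and 40.3 CPM after medium then IFNγ (first stimulus of 2, 6, 12 and 24 h, the order of all 4-library values here), against 14.7, 8.32, 10.8 and 13.3 CPM in the medium group. Every IFNγ library lay above every medium library, 3.22-fold higher in the fit (log2 fold change 1.69 ± 0.26, SE; edgeR adjusted p = 1.9e-05). Ddit3, which encodes the pro-apoptotic factor CHOP, was at 139, 168, 86.1 and 93.2 CPM after medium then IFNγ, against 67.3, 58.2, 63.5 and 63.6 CPM in the medium group. Its groups did not overlap either, and it was higher by 0.81 ± 0.23 (log2, SE; edgeR adjusted p = 0.0063). Atf4 itself rose by 0.30 and Nupr1, a stress-induced co-regulator, by 0.38, while Atf5, a factor close to ATF4 that also regulates the mitochondrial stress response, was called lower at -0.28 and Cebpb was not called (0.20).

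Of the feedback and effector genes, Trib3, an inhibitor of ATF4 and CHOP action, was at 58.6, 71.2, 43.8 and 47.0 CPM after medium then IFNγ, against 32.4, 16.0, 35.8 and 31.8 CPM in the medium group. All IFNγ libraries lay above all medium libraries (log2 fold change 0.90 ± 0.25, SE; edgeR adjusted p = 0.0045). Chac1, which degrades glutathione, and Stc2, a secreted glycoprotein, were also called higher, by 0.73 and 0.65 on the log2 scale. Sesn2, an inhibitor of mTORC1, Ppp1r15a, the GADD34 subunit that returns eIF2α to its unphosphorylated form, and Vldlr, a lipoprotein receptor, were not called, at 0.24 to 0.31.

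The metabolic part of the arm was higher with 1 clear exception. Called higher were 5 of 8 enzymes of amino acid synthesis and one-carbon metabolism (Asns for asparagine, Psat1 and Phgdh for serine, and Shmt2 and Mthfd2 of the mitochondrial folate cycle, by 0.29 to 0.44 log2), 3 of 4 transporters (Slc7a5, its partner chain Slc3a2 and the cationic amino acid carrier Slc7a1, by 0.33 to 0.57) and 4 of 5 tRNA synthetases. The exception was Ass1 (GRCm38, chr2:31470207-31520672), which encodes argininosuccinate synthase, the enzyme that lets cells make arginine from citrulline. It was at 5.15, 6.27, 4.71 and 3.95 CPM after medium then IFNγ, against 8.91, 12.2, 8.04 and 8.20 CPM in the medium group. Every IFNγ library lay below every medium library, with a log2 fold change of -0.89 ± 0.16 (SE; edgeR adjusted p = 8.16e-05).

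Wars (GRCm38, chr12:108860030-108894174), the tryptophan-tRNA synthetase, had the largest log2 fold change of the 5 synthetases. It was at 125, 131, 148 and 134 CPM after medium then IFNγ, against 47.4, 37.6, 51.0 and 55.8 CPM in the medium group. The groups lay far apart, 2.82-fold higher in the fit (log2 fold change 1.49 ± 0.096, SE; edgeR adjusted p = 1.08e-10). The alanine, asparagine and glycine enzymes Aars, Nars and Gars were higher by 0.51, 0.34 and 0.20, and the serine enzyme Sars was not called (0.11). WARS is known as an interferon-induced enzyme.

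In the ER chaperone arm, Sdf2l1, an ER protein that works with BiP, was at 43.5, 44.8, 38.98 and 46.1 CPM after medium then IFNγ, against 26.4, 12.0, 22.1 and 27.7 CPM in the medium group. Every IFNγ library lay above every medium library (log2 fold change 0.99 ± 0.17, SE; edgeR adjusted p = 5.18e-05). Hspa5, the main ER chaperone, was higher by 0.75 ± 0.15 (log2, SE; edgeR adjusted p = 0.000245). Hsp90b1, the ER member of the HSP90 family, and Herpud1, part of ER-associated degradation, were higher by 0.23 and 0.41, whereas Xbp1 (0.096) and the BiP co-chaperone Dnajb9 (0.057) were not called. The sensors went the other way: Ern1 (-0.64), Eif2ak3 (-0.35) and Eif2ak4 (-0.17) were called lower, and Atf6 was not called (0.053).

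Further genes of the same pathways gave a like picture for the ATF4 side and a mixed one for the ER. Of 28 further ATF4 and amino acid genes tested, 13 were called higher and 3 lower, and the largest called changes were those of the transporters Slc7a3 (0.86) and Slc1a5 (0.58) and of Ddit4, an inhibitor of mTORC1, which was lower (-0.79). Of 28 further ER folding genes, 8 were higher, among them Creld2 (0.68) and Ero1l (0.52), and 6 lower, among them the translocon subunit Sec61b (-0.51). Outside both arms, 6 of 10 eIF2 genes, 8 of 11 cytosolic heat shock genes and 6 of 10 NRF2 targets were also called higher, the last with Gclm (1.04) and Hmox1 (0.93) among them, while 1 NRF2 target was called lower, Osgin1 (-1.06), and 4 of the 10 were negative. The largest called changes of the heat shock list were those of Hspa1b (1.36) and Hspa1a (1.20), near-identical copies whose shared reads the counting could have split.

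Without the medium library of 6 h, 18 of the 39 members were called, 15 higher and 3 lower, in place of 28. Of all genes, 5826 were then called, in place of 6547. Atf4, Atf5, Chac1, Asns, Psat1, Mthfd2, Gars, Eif2ak4, Hsp90b1 and Herpud1 lost the call, and so did Atf5 without any of 3 single libraries of medium then IFNγ; without the medium library Asns was at 0.25 (edgeR adjusted p = 0.19) and Atf4 at 0.23 (edgeR adjusted p = 0.116). In a fit with no replicate block, 16 members and 5247 of all genes were called, and Ddit3 was not (0.94, edgeR adjusted p = 0.0913). Without all libraries of 6 h, 12 members and 5534 of all genes were called, and Trib3 was not (0.56, edgeR adjusted p = 0.0935).

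**Figure D2:**
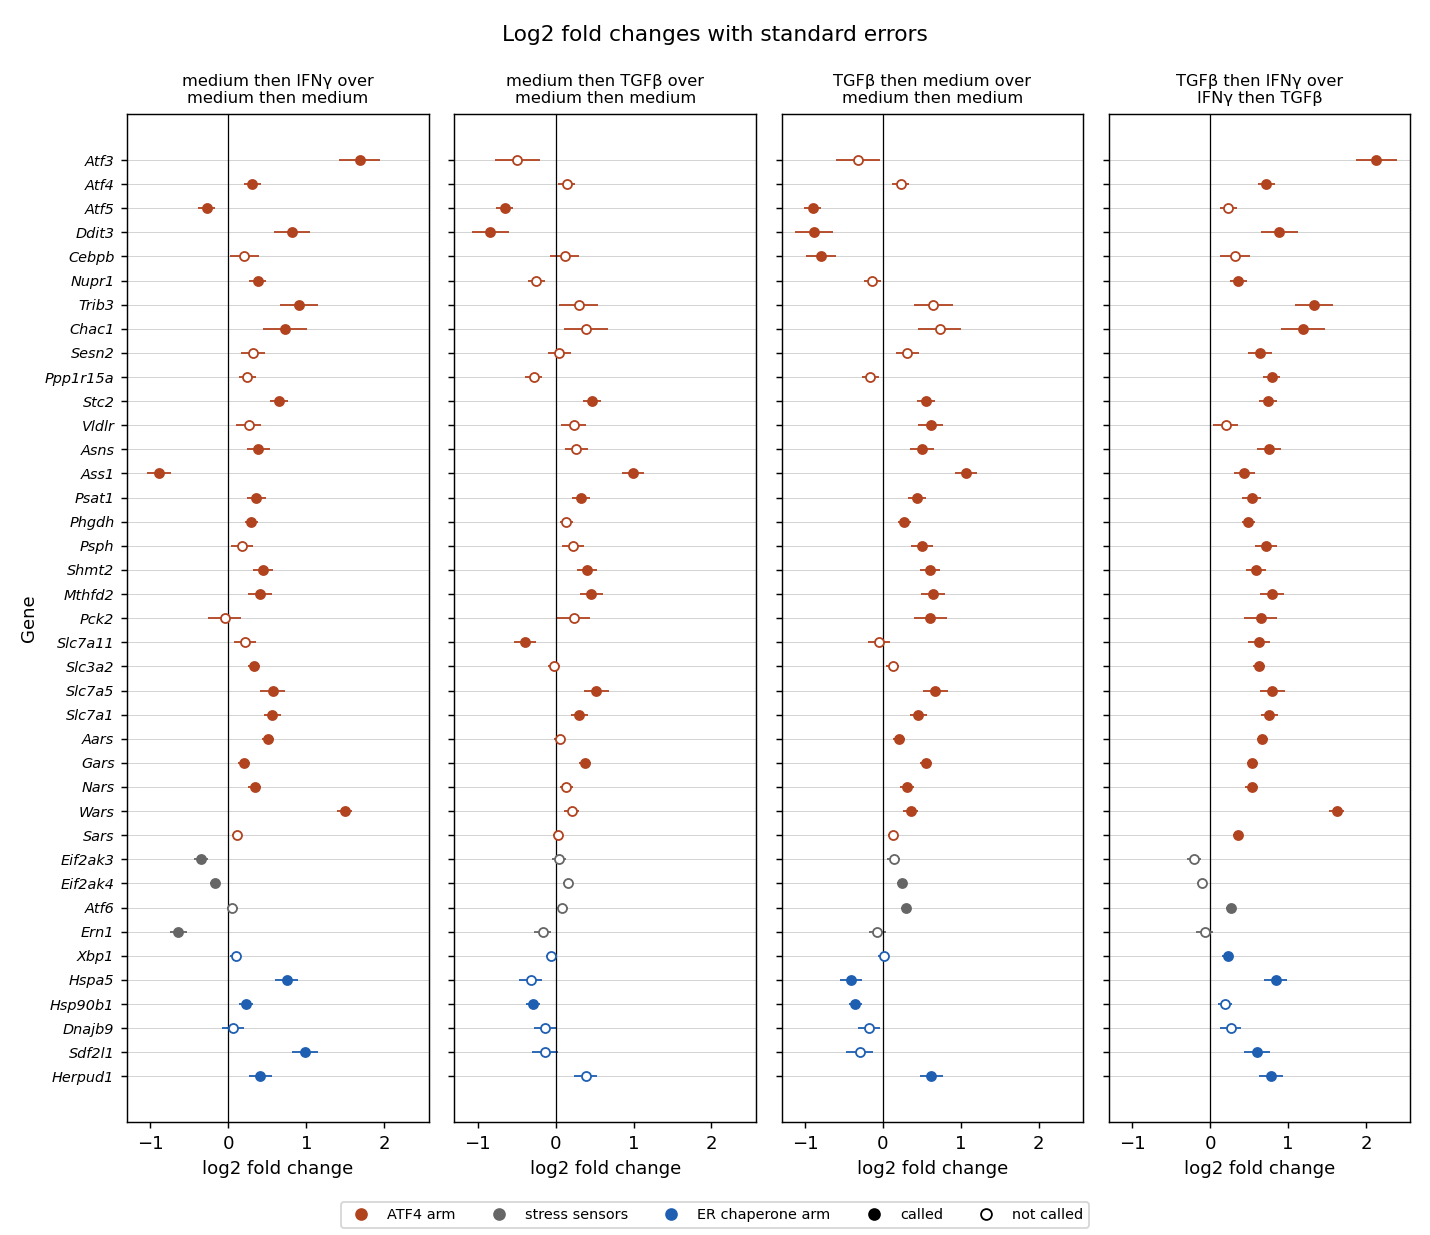
Log2 fold changes (points) with standard errors (bars) of the 39 genes in 4 comparisons, on a common axis; filled points passed an adjusted p of 0.05 in the edgeR fit over all genes, and colours mark the ATF4 arm (red-brown), the stress sensors (grey) and the ER chaperone arm (blue). In the right panel all 29 ATF4 arm points lie above 0, while in the panel for TGFβ then medium the enzymes lie above 0 and Hspa5 and Hsp90b1 below it.

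After TGFβ then medium, enzymes of the ATF4 arm were higher while some of its transcription factors and some ER chaperones were lower. At harvest, 24 h after the cytokine was removed, 16 ATF4 arm genes were called higher and 3 lower against medium. Of the ER chaperone genes 1 was called higher and 2 lower. The background was 14.5% of all genes called higher and 14.5% called lower. The median log2 fold change was 0.36 in the ATF4 arm and -0.24 in the ER chaperone arm, beside -0.00020 over all genes.

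All 8 enzymes of amino acid synthesis and one-carbon metabolism were called higher after TGFβ then medium, by 0.28 to 1.06 on the log2 scale. Ass1 had the largest change among them, at 23.7, 23.0, 15.9 and 15.2 CPM after TGFβ then medium, against 8.91, 12.2, 8.04 and 8.20 CPM in the medium group. All TGFβ libraries lay above all medium libraries, with those of 2 and 6 h the highest (log2 fold change 1.06 ± 0.14, SE; edgeR adjusted p = 9.6e-06). Mthfd2, the mitochondrial folate enzyme, was at 242, 205, 299 and 253 CPM, against 173, 96.9, 190.4 and 186 CPM in the medium group. These groups did not overlap, with the 12 h TGFβ library the highest and the 6 h medium library the lowest (log2 fold change 0.64 ± 0.15, SE; edgeR adjusted p = 0.0028). Slc7a5, the large neutral amino acid transporter, was at 92.6, 91.3, 123 and 98.4 CPM, against 72.9, 35.1, 77.4 and 72.2 CPM in the medium group. It too was above every medium library (0.67 ± 0.16 log2, SE; edgeR adjusted p = 0.00288).

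Of the 6 transcription factors of the same arm, 3 fell and the others did not pass the test. Atf5 was at 66.6, 64.0, 72.2 and 62.0 CPM after TGFβ then medium, against 111, 157, 120.1 and 105 CPM in the medium group. Every TGFβ library lay below every medium library (log2 fold change -0.90 ± 0.11, SE; edgeR adjusted p = 3.33e-06). Cebpb, which encodes C/EBPβ, a partner of ATF4 on DNA, was at 154, 109, 162 and 100.0 CPM, against 249, 249.8, 249 and 169 CPM in the medium group. The groups did not overlap (-0.80 ± 0.19 log2, SE; edgeR adjusted p = 0.00274). Ddit3 was at 52.4, 65.9, 22.8 and 19.4 CPM, against 67.3, 58.2, 63.5 and 63.6 CPM in the medium group. Its 2 h and 6 h libraries were near the medium level and those of 12 and 24 h well below it (-0.88 ± 0.24 log2, SE; edgeR adjusted p = 0.00708). Atf4 (0.23), Atf3 (-0.32) and Nupr1 (-0.14) were not called.

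In the ER chaperone arm Hsp90b1 (-0.35) and Hspa5 (-0.41) were called lower and Herpud1 (0.62) was called higher. Xbp1, Dnajb9 and Sdf2l1 were not called, at -0.30 to 0.01. Of the sensors, Atf6 (0.30) and Eif2ak4 (0.24) were called higher. The further lists had the same division: 23 of 28 further ATF4 and amino acid genes were called higher and 1 lower, with the proline enzyme Pycr1 (0.89) and the alanine transaminase Gpt2 (0.85) among the higher and the transcription factor Nfil3 (-1.10) the lower, whereas of 28 further ER folding genes 12 were called lower and 1 higher, with calreticulin (Calr, -0.54) and Os9 (-0.49) among the lower. Of 10 eIF2 genes, 4 were higher and 3 lower, the largest change being a lower Eif2ak2, the interferon-inducible kinase PKR (-1.31).

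TGFβ as the second stimulus was still present at harvest. After medium then TGFβ, 8 ATF4 arm genes were called higher and 3 lower against medium, and 1 ER chaperone gene, Hsp90b1, was called lower (-0.29), where 11.7% of all genes were called higher and 11.6% lower. Ass1 was at 22.0, 23.5, 15.4 and 13.6 CPM after medium then TGFβ, against 8.91, 12.2, 8.04 and 8.20 CPM in the medium group, without overlap (0.99 ± 0.14 log2, SE; edgeR adjusted p = 2.89e-05). Atf5 was at 87.4, 72.5, 88.5 and 67.7 CPM, against 111, 157, 120.1 and 105 CPM in the medium group, again without overlap (-0.65 ± 0.11 log2, SE; edgeR adjusted p = 0.000158). Of the genes called higher, Slc7a5 was at 96.2, 86.9, 103 and 79.2 CPM after medium then TGFβ, against 72.9, 35.1, 77.4 and 72.2 CPM in the medium group (0.52 ± 0.16 log2, SE; edgeR adjusted p = 0.0206). Stc2 was at 22.8, 23.8, 27.5 and 24.2 CPM, against 18.3, 11.6, 22.1 and 19.7 CPM in the medium group (0.46 ± 0.12 log2, SE; edgeR adjusted p = 0.00622). Mthfd2 was at 239, 196, 251 and 194 CPM, against 173, 96.9, 190.4 and 186 CPM in the medium group (0.46 ± 0.15 log2, SE; edgeR adjusted p = 0.0324). For all 3 the 6 h medium library was the lowest, and Slc7a5, Stc2 and Mthfd2 were each above every medium library. Ddit3 was at 55.5, 68.8, 22.6 and 20.0 CPM after medium then TGFβ, against 67.3, 58.2, 63.5 and 63.6 CPM in the medium group. As after TGFβ then medium, the 12 and 24 h libraries were the low ones; in this sequence the hours before TGFβ were spent in medium (-0.84 ± 0.24 log2, SE; edgeR adjusted p = 0.0128).

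Cebpb, called lower after TGFβ then medium, was not called after medium then TGFβ (0.12), whereas the cystine carrier Slc7a11 was called lower after medium then TGFβ (-0.40, edgeR adjusted p = 0.0412) and not after TGFβ then medium (-0.048); the difference between the sequences was not tested. In the further lists after medium then TGFβ, 11 of 28 further ATF4 and amino acid genes were called higher and 1 lower (Nfil3, -0.99), and 7 of 28 further ER folding genes were called lower and 1 higher. Of the 12 members called after medium then TGFβ, single libraries decided many: 6 were called without the TGFβ library of 6 h or without the medium library of 12 h, 7 without the TGFβ library of 12 or of 24 h, and 3 with no replicate block. Over all genes these fits called 2885, 2975, 2627, 2558 and 1726 in the same order, in place of 3476. Ddit3 lost its call without the 12 or 24 h library of either group (edgeR adjusted p of 0.0513 to 0.0669), Slc7a5 without the 6 h library of either (edgeR adjusted p of 0.0616 and 0.0834) and Mthfd2 without any of 7 of the 8 (edgeR adjusted p of 0.0527 to 0.139). Without the medium library of 6 h, 10 members and 3135 of all genes were called. Of the 10, 3 were higher and 7 lower, and the ATF4 arm median was 0.071. The enzymes Psat1 (0.23, edgeR adjusted p = 0.167), Shmt2 (0.23, edgeR adjusted p = 0.0924) and Mthfd2 (0.31, edgeR adjusted p = 0.139) then lost the call. Atf3 was then called lower at -0.75 (edgeR adjusted p = 0.0461). After TGFβ then medium, 21 members were called without that library, 15 higher and 6 lower, and 12 were called without all libraries of 12 h. Without the medium library of 6 h, Asns, Phgdh, Pck2, Aars and Nars lost the call. Hspa5 lost its call without any of 5 single libraries (edgeR adjusted p of 0.0764 to 0.149).

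**Figure D3:**
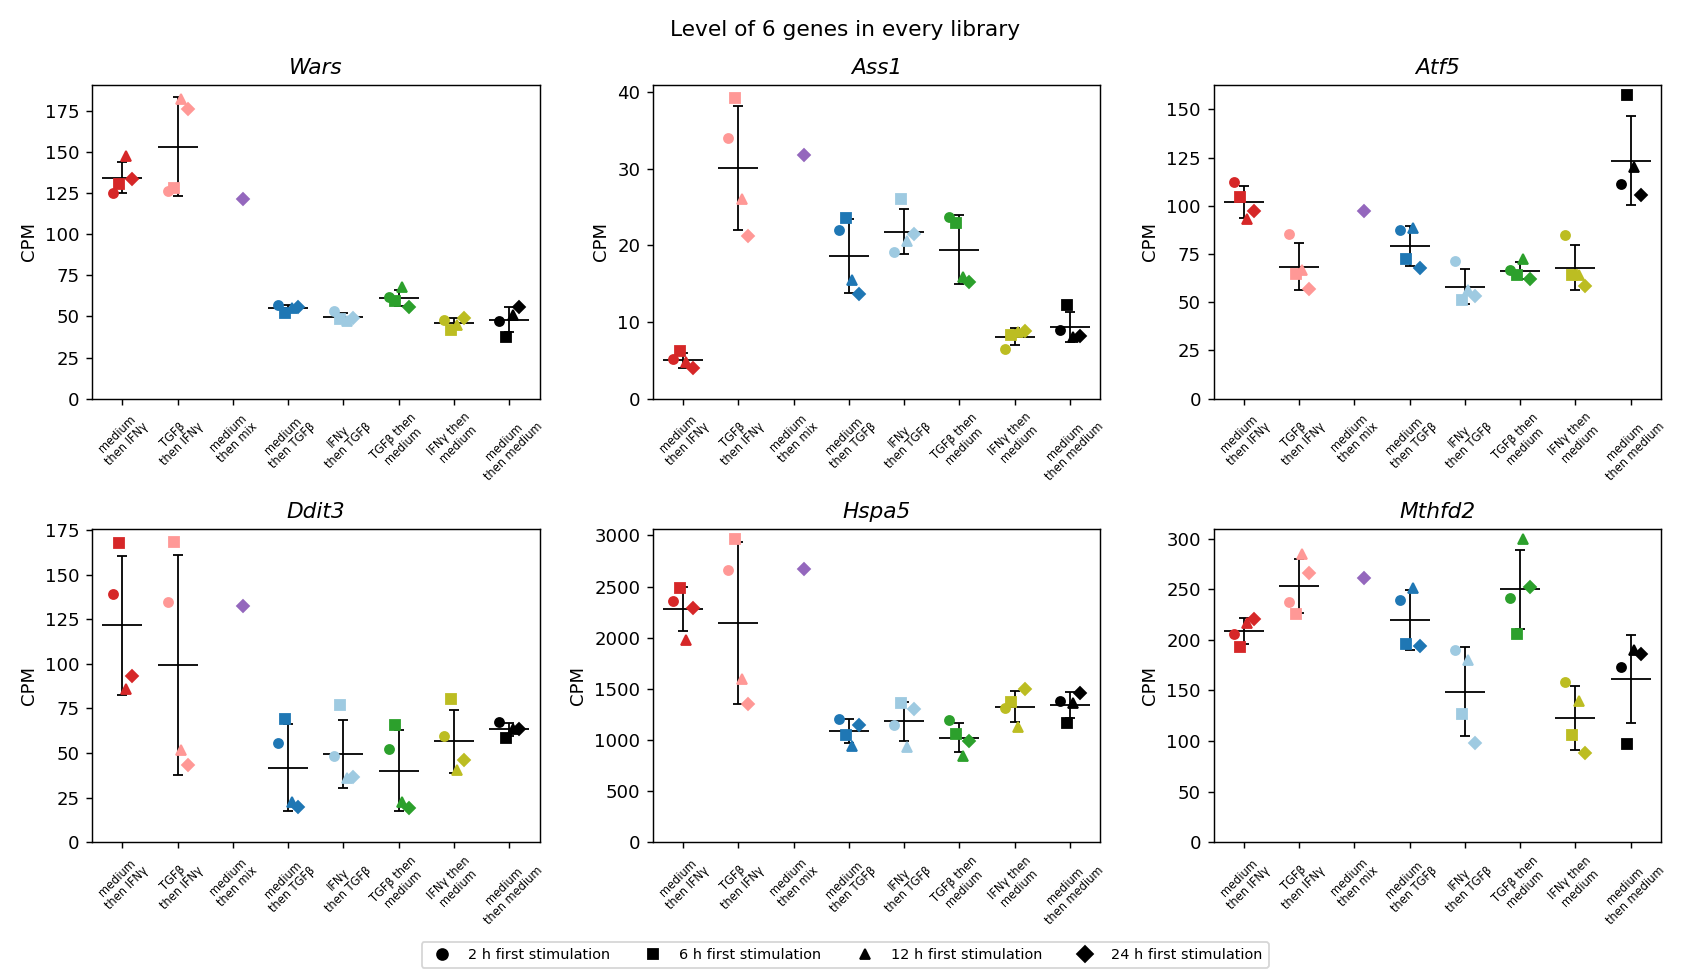
CPM of Wars, Ass1, Atf5, Ddit3, Hspa5 and Mthfd2 in every library, by sequence; symbols give the hours of the first stimulation, horizontal marks the mean and bars the SD of 4 libraries, and medium then mix is 1 library with neither. Wars is high in each library that ended with IFNγ or the mix, and Ass1 is lowest after medium then IFNγ and highest after TGFβ then IFNγ.

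Once IFNγ had been replaced by medium, 1 member passed the test. In IFNγ then medium against medium, 0 members were called higher and 1 lower, where 0.79% of all genes were called, 0.382% higher and 0.408% lower. The 1 was Atf5, at 85.0, 63.9, 63.9 and 58.5 CPM after IFNγ then medium, against 111, 157, 120.1 and 105 CPM in the medium group. All its IFNγ libraries lay below all medium libraries (-0.88 ± 0.11 log2, SE; edgeR adjusted p = 0.00062); it was not called without all libraries of 12 h (edgeR adjusted p = 0.0514). Wars, nearly 3 times the medium level while IFNγ was present, was at 47.7, 41.5, 44.97 and 49.1 CPM after IFNγ then medium, against 47.4, 37.6, 51.0 and 55.8 CPM in the medium group (-0.06 ± 0.096 log2, SE; edgeR adjusted p = 0.808).

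Besides Atf5, no single gene of the ATF4 arm passed the test, though most had the same sign. After IFNγ then medium, 28 of its 29 genes had a negative log2 fold change, with a median of -0.28, and 15 had an unadjusted p below 0.05, all of them lower. The share of all genes below that unadjusted p was not counted, here or in the other comparisons. Over all genes tested, 7247 of 14935 were negative, with a median of 0.0066, and the ER chaperone arm had 3 of 6 negative and a median of 0.0032. DESeq2 called 5 members, where it called 403 of all genes. In edgeR 3 were called without the medium library of 2 h (498 of all genes) or of 6 h (65). Without the IFNγ then medium library of 2 h, 2 were called (101 of all genes). The libraries of 24 h weighed on this: without them the ATF4 arm median was -0.15 and 27 of 29 genes were negative, and without the medium library of 6 h it was -0.40, with Atf4 (-0.50, edgeR adjusted p = 0.0484) and Psph (-0.63, edgeR adjusted p = 0.0487) then called lower.

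IFNγ before TGFβ was set against medium before TGFβ, which shares no library with the comparison above. There 0 members were called higher and 1 lower, where 0.0937% of all genes were called, 0.0268% higher and 0.067% lower. The 1 was Stc2, at 17.9, 11.7, 21.0 and 13.9 CPM after IFNγ then TGFβ, against 22.8, 23.8, 27.5 and 24.2 CPM after medium then TGFβ. The groups did not overlap (-0.62 ± 0.12 log2, SE; edgeR adjusted p = 0.0474), but the call was lost when any of 7 of the 8 libraries was left out (edgeR adjusted p of 0.0773 to 0.165). Without the IFNγ then TGFβ library of 2 h, 5 members were called, where 45 of all genes were called. In the ATF4 arm 26 of 29 genes were negative, with a median of -0.37, and 19 had an unadjusted p below 0.05, all of them lower; without the libraries of 24 h, 25 were negative and the median was -0.31. Over all genes tested the median was 0.0071 and 7148 of 14935 were negative, and in the ER chaperone arm 2 of 6 were negative, with a median of 0.058. DESeq2 called 11 members, where it called 160 of all genes. A fit with no replicate block called 0 members, where it called 1 of all genes.

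Whether the effect of a first IFNγ depended on the second stimulus was tested as an interaction, and edgeR called 0 members, with 4 at an unadjusted p below 0.05 and 0 called by DESeq2. Over all genes it called 0%. The 24 h libraries were low in both sequences that began with IFNγ, though not there alone. Of the 29 ATF4 arm genes, 19 were lowest at 24 h in IFNγ then medium and 20 in IFNγ then TGFβ. The same held for 22 in medium then TGFβ, 17 in TGFβ then medium and 15 in TGFβ then IFNγ, but for 6 in medium then IFNγ and 4 in the medium group. The share of all genes lowest at 24 h was not counted, so a shift of the whole library cannot be told apart from one of the arm. The median of the ATF4 arm, as log2 CPM relative to the medium mean, was 0.09, -0.16, -0.01 and -0.62 in IFNγ then TGFβ at 2, 6, 12 and 24 h. In IFNγ then medium it was -0.02, -0.22, -0.23 and -0.47.

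TGFβ before IFNγ changed few members relative to medium before IFNγ, and Ass1 above all. Of the 39, 2 were called higher and 2 lower, where 8.64% of all genes were called higher and 7.19% lower. Ass1 was at 34.0, 39.2, 26.0 and 21.2 CPM after TGFβ then IFNγ, against 5.15, 6.27, 4.71 and 3.95 CPM after medium then IFNγ. Its groups lay far apart, 5.94-fold higher in the fit (log2 fold change 2.57 ± 0.15, SE; edgeR adjusted p = 2.76e-11). The effect of TGFβ first was larger with IFNγ second than with medium second, by 1.51 ± 0.20 on the log2 scale (SE; edgeR adjusted p = 0.000435), and Ass1 was the 1 member called in this interaction, where 0.395% of all genes were called, 0.321% higher and 0.0737% lower. Without all libraries of 24 h, 2 members were called, where 17 of all genes were called.

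Gars was also called higher after TGFβ then IFNγ, at 596, 593, 667 and 644 CPM, against 472, 465, 492 and 503 CPM after medium then IFNγ, without overlap (0.37 ± 0.075 log2, SE; edgeR adjusted p = 0.00134). Atf5 was called lower, at 85.3, 64.4, 66.8 and 56.7 CPM, against 112, 105, 93.1 and 97.4 CPM after medium then IFNγ. Its groups did not overlap (-0.59 ± 0.11 log2, SE; edgeR adjusted p = 0.00055). Nupr1 was at 133, 158, 107 and 92.8 CPM, against 181, 208, 136 and 117 CPM after medium then IFNγ, lower at every duration though the groups overlapped (-0.38 ± 0.11 log2, SE; edgeR adjusted p = 0.0167). Nupr1 lost its call without the medium then IFNγ library of 2 or 6 h or the TGFβ then IFNγ library of 12 or 24 h (edgeR adjusted p of 0.0522 to 0.0835), and with no replicate block (edgeR adjusted p = 0.209). No ER chaperone gene passed the test, at -0.33 to 0.34, and 2 had an unadjusted p below 0.05. These values average over durations. Hspa5 was at 2666, 2961, 1597 and 1351 CPM, against 2360, 2483, 1980 and 2289 CPM after medium then IFNγ, above at 2 and 6 h and below at 12 and 24 h. All 6 ER chaperone genes were lowest in the 24 h library of TGFβ then IFNγ, and the share of all genes lowest there was not counted. In that sequence Hspa5 had a slope of -0.31 log2 per doubling of hours (edgeR adjusted p = 0.1). Among further amino acid genes, Ddit4 was higher (1.29) and so was the transsulfuration enzyme Cth (0.54).

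The order of the cytokines was compared directly between TGFβ then IFNγ and IFNγ then TGFβ, so that both groups received both cytokines. The cytokine given last was present for 24 h up to harvest, whereas the first was given for varying times and then removed. Order can therefore not be told apart from which cytokine was present at harvest. With the shorter first stimuli it cannot be told apart from the length of exposure either. The ATF4 arm was higher almost as a whole when IFNγ came last: 26 of 29 genes were called higher and 0 lower, all 29 had a positive log2 fold change and the median was 0.65. In the ER chaperone arm 4 of 6 were called higher and 0 lower, with a median of 0.43. Over all genes tested 16.4% were called higher and 16.2% lower, with a median of -0.0046. Of the sensors, Atf6 alone was called, higher by 0.27. Mitochondrial genes held 0.624 to 0.936% of counts after TGFβ then IFNγ and 0.977 to 1.25% after IFNγ then TGFβ, and the fibroblast and endothelial markers summed to 159 to 218 CPM after TGFβ then IFNγ and 516 to 678 CPM after IFNγ then TGFβ; their part in the result was not tested. This comparison contains no medium library, and 26 to 32 of the 39 members were called when single libraries or durations were left out. Over all genes these fits called 3155 to 5020, in place of 4859.

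Atf3 was at 69.1, 89.8, 31.8 and 21.8 CPM after TGFβ then IFNγ, against 13.2, 19.2, 7.18 and 7.39 CPM after IFNγ then TGFβ. The lowest of the 4 IFNγ-last libraries, that of 24 h, was still above the highest TGFβ-last library (2.13 ± 0.26 log2, SE; edgeR adjusted p = 2.25e-06). Ddit3 was at 135, 168, 51.4 and 43.5 CPM, against 48.4, 76.7, 36.2 and 36.6 CPM after IFNγ then TGFβ. It was higher at every duration, but the 12 and 24 h libraries of the IFNγ-last sequence overlapped with the other group (0.89 ± 0.23 log2, SE; edgeR adjusted p = 0.00542), and with no replicate block it was not called (edgeR adjusted p = 0.0942). Atf4 was at 779, 864, 712 and 682 CPM, against 579.5, 465, 516 and 312 CPM after IFNγ then TGFβ. The groups did not overlap and the difference was largest at 24 h (0.72 ± 0.11 log2, SE; edgeR adjusted p = 3.69e-05).

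Trib3 was at 58.1, 76.996, 62.6 and 66.4 CPM after TGFβ then IFNγ, against 32.2, 28.4, 36.7 and 12.6 CPM after IFNγ then TGFβ, without overlap (1.33 ± 0.25 log2, SE; edgeR adjusted p = 0.000253). Chac1 was at 19.8, 25.4, 26.7 and 23.3 CPM, against 14.9, 8.61, 17.1 and 3.79 CPM after IFNγ then TGFβ, and the 24 h library of the second sequence was the lowest of all 29 (1.19 ± 0.28 log2, SE; edgeR adjusted p = 0.00238). Asns, the asparagine synthetase and a standard readout of the amino acid response, was at 236, 223, 264 and 227 CPM, against 177, 145, 160.5 and 89.4 CPM after IFNγ then TGFβ. No library of one group reached the range of the other (0.76 ± 0.15 log2, SE; edgeR adjusted p = 0.000552). All 8 synthesis enzymes, all 4 transporters and all 5 tRNA synthetases were called higher, by 0.44 to 0.80, 0.62 to 0.80 and 0.36 to 1.62.

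Wars gave the upper end of that range, at 126, 128, 182 and 176 CPM after TGFβ then IFNγ, against 53.4, 48.3, 47.1 and 48.8 CPM after IFNγ then TGFβ (1.62 ± 0.096 log2, SE; edgeR adjusted p = 3.24e-11). Hspa5 was at 2666, 2961, 1597 and 1351 CPM, against 1145, 1357, 932 and 1298 CPM after IFNγ then TGFβ. The 2 and 6 h libraries of the IFNγ-last sequence were far above the other group and that of 24 h was within its range (0.84 ± 0.15 log2, SE; edgeR adjusted p = 0.000148). Xbp1 was at 87.3, 84.7, 74.1 and 68.6 CPM, against 69.6, 67.1, 66.8 and 65.8 CPM after IFNγ then TGFβ, a small difference with overlap (0.23 ± 0.07 log2, SE; edgeR adjusted p = 0.0157) that was not called without the IFNγ-last library of 2 h (edgeR adjusted p = 0.0672) or of 6 h (edgeR adjusted p = 0.108). Of further ATF4 and amino acid genes, 18 of 28 were higher and 0 lower, and of further ER folding genes 5 of 28 were higher, among them Creld2 (0.48) and Manf (0.38), and 6 lower.

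The duration of the first stimulus, which also sets the total time in culture so that both cannot be told apart, was tested as a slope on log2 hours averaged over the 7 sequences. Of the 39 members, 0 were called higher with duration and 9 lower, where 5.29% of the 13973 genes tested were called higher and 6.17% lower. All 9 were ATF4 arm genes: Atf3, Atf4, Atf5, Ddit3 and Nupr1 among the factors, Slc7a11 and Slc3a2, which form the cystine importer, the serine enzyme Psph, and Aars. No ER chaperone gene or sensor passed the test, and 1 of each had an unadjusted p below 0.05. Ddit3 had the steepest slope, -0.30 ± 0.072 log2 per doubling of hours (SE; edgeR adjusted p = 0.0155), and Slc7a11 a slope of -0.24 ± 0.068 (SE; edgeR adjusted p = 0.0299).

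For Ddit3 and Slc7a11 both late libraries (12 and 24 h) were below both early ones (2 and 6 h) in each of the 6 sequences with a cytokine and not in the medium group. This restates the slope in the same libraries, and the share of all genes with this pattern was not counted. Slc7a11 was at 170.2, 251, 99.6 and 92.0 CPM at 2, 6, 12 and 24 h of TGFβ then IFNγ. In the medium group it was at 110.4, 206, 121 and 107 CPM. Without the libraries of 12 h, or without those of 24 h, the trend called 0 genes of any kind, members included. Members called were 4, 3, 3, 4 and 5 without the single 24 h library of medium then TGFβ, TGFβ then medium, TGFβ then IFNγ, IFNγ then medium and IFNγ then TGFβ, where 613 to 837 of all genes were called in place of 1601.

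**Figure D4:**
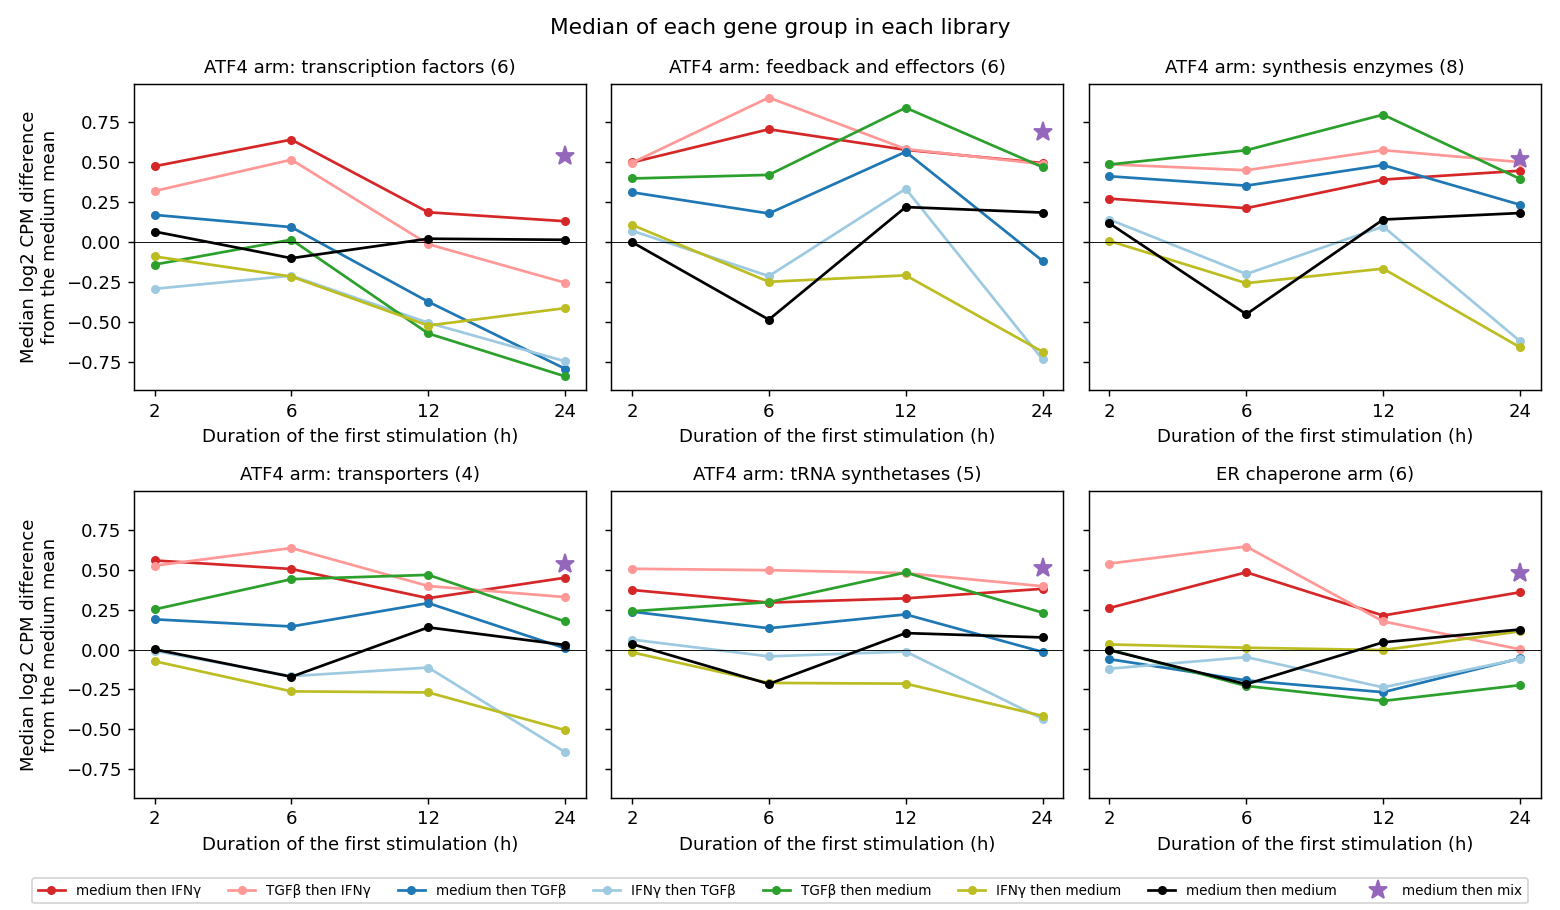
Median log2 CPM difference from the medium mean over the genes of 5 groups of the ATF4 arm and of the ER chaperone arm (vertical axis) in each library, by hours of the first stimulation (horizontal axis, evenly spaced); lines join the 4 libraries of a sequence and the star is the single library of medium then mix. The sequences that ended with IFNγ stay above 0 in the transporter, synthetase and enzyme panels at every duration, and those that began with IFNγ are lowest at 24 h in the same panels.

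The library that received medium and then both cytokines together has no replicate and no test. Its ATF4 arm median was 0.56 above the medium mean and its ER chaperone median 0.48, on the log2 scale. Ass1 was at 31.8 CPM with the mix, against 3.95 CPM in the 24 h library of medium then IFNγ, 13.6 CPM in that of medium then TGFβ and 8.20 CPM in that of medium then medium. The mix thus lay above medium then IFNγ and within the range of TGFβ then IFNγ over all durations (21.2 to 39.2 CPM). It was above the 24 h library of that sequence, which was the lowest of the range at 21.2 CPM. Atf3 was at 72.5 CPM, against 40.3, 5.92 and 13.3 CPM in the same 3 libraries, and Hspa5 at 2671 CPM, against 2289, 1149 and 1463 CPM. Atf5 was at 97.5 CPM, against 97.4, 67.7 and 105 CPM.

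Among the comparisons with medium, the medians of the arms lay furthest apart after TGFβ then medium. The median log2 fold changes were 0.34 in the ATF4 arm and 0.32 in the ER chaperone arm for medium then IFNγ, 0.20 and -0.14 for medium then TGFβ, 0.36 and -0.24 for TGFβ then medium, and -0.28 and 0.0032 for IFNγ then medium, each against medium. Without the medium library of 6 h the same pairs were 0.25 and 0.23, 0.071 and -0.21, 0.28 and -0.29, and -0.40 and -0.049. The difference between the arms was not tested. Within the ATF4 arm, genes were also counted with and without the ATF4 element in the promoter window. After medium then IFNγ, 6 of 9 with a match were called higher, with a median of 0.38, and 10 of 17 without, with a median of 0.31. When IFNγ came last, 8 of 9 with a match and 15 of 17 without were called higher, with medians of 0.65 and 0.64. The matched genes included both Atf3 and Pck2, the mitochondrial PEP carboxykinase, which was not called after medium then IFNγ (-0.045).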

How the data were processed

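Members and gene lists were chosen with earlier results of these data known. The table holds raw counts per gene, which the authors deposited; alignment used HISAT on GRCm38, per the submitters' processing notes, while for the counting tool, annotation and strand setting the sources name nothing, so overlapping, antisense and near-identical genes are uncertain. All 29 libraries entered 1 edgeR quasi-likelihood model (edgeR 4.0.16, R 4.3.3; TMM; filterByExpr, minimum count 10) with terms for sequence and for duration, the replicate block. Benjamini-Hochberg adjustment ran over all genes tested. The slope on log2 hours was fitted per sequence and averaged. Same-duration libraries deviated together in each comparison between cytokine sequences (r 0.125 to 0.538 over 12116 genes) but not in each with medium (-0.0563 to 0.355). Replicates differed beyond counting noise (chi-square per degree of freedom of at least 3.73). Values in every library are given for at most 6 called members with the largest log2 fold change per comparison, plus sentinel genes; further lists name at most 3, and genes named beyond these were chosen after their values were seen. Alternatives used DESeq2 1.42.0, other scaling, filters and fits. The fits were also run on simulated counts, with independent libraries and none standing apart. That run does not cover the medium library of 6 h or the use of durations as replicates.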

Additional observations from a re-analysis of the deposited data

Results flagged for a closer look

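In 18 of 273 gene and sequence combinations 1 of the 4 libraries lay far from the other 3; chance flags about 5% of groups. Of these, 8 were the medium library of 6 h, where Psat1 (131 CPM), Phgdh (99.1 CPM), Psph (55.9 CPM), Shmt2 (139 CPM), Slc7a5 (35.1 CPM), Nars (542 CPM) and Hsp90b1 (1957 CPM) were low and Slc7a11 (206 CPM) was high. In medium then TGFβ, the 24 h library was low for Asns (158 CPM), Aars (342 CPM), Sars (410.3 CPM) and Atf6 (145 CPM). Single genes were flagged elsewhere. Cebpb was low in the 24 h medium library (169 CPM) and Shmt2 high in the 12 h library of TGFβ then medium (401 CPM). In TGFβ then IFNγ, Sars was low at 24 h (501 CPM) and Herpud1 high at 6 h (37.5 CPM). In IFNγ then TGFβ, Sesn2 was low at 24 h (15.9 CPM) and Ppp1r15a high at 6 h (61.0 CPM). Whether the flags outside the 6 h medium library exceed the rate that chance gives was not tested. Ass1 differed in its response to a first TGFβ between a second IFNγ and a second medium, by 1.51 on the log2 scale (edgeR adjusted p = 0.000435). The causes were not tested.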

How the results depend on the processing

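With no replicate block, which tests the pairing by duration, members called were 16 after medium then IFNγ, 3 after medium then TGFβ and 0 after IFNγ then TGFβ against medium then TGFβ. Over all genes these fits called 5247, 1726 and 1. A fit of only the groups compared called 5 after medium then TGFβ, 10 after TGFβ then medium, 0 after IFNγ then medium, 10 after TGFβ then IFNγ against medium then IFNγ, and 8 after IFNγ then TGFβ. In the same order, 1047, 1381, 0, 2136 and 73 of all genes were called. With no filter on low counts 4 were called after IFNγ then medium and 10 after IFNγ then TGFβ, where 168 and 93 of all genes were called. With DESeq2 these were 5 and 11, where 403 and 160 of all genes were called. DESeq2 called 3 in the TGFβ first by IFNγ second interaction (225 of all genes), and a slope on hours called 15 (3089 of all genes).

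Leaving out single libraries or durations gave 12 to 30 members called after medium then IFNγ, 4 to 12 after medium then TGFβ, 0 to 3 after IFNγ then medium and 12 to 28 after TGFβ then medium. In the same order, 5465 to 6372, 1847 to 3720, 0 to 498 and 2694 to 4379 of all genes were called. It gave 3 to 6 after TGFβ then IFNγ and 0 to 5 after IFNγ then TGFβ, each against medium first, 26 to 32 for the order of the cytokines, 1 to 2 and 0 to 0 for the interactions and 0 to 13 for duration. Over all genes these were 1039 to 2249, 0 to 45, 3155 to 5020, 8 to 203, 0 to 20 and 0 to 4179. Of 3287 values of single genes under an alternative, 2852 kept direction and call, 358 lost their call, 34 gained one and 43 that were called neither before nor after changed sign; 0 called values changed sign. The causes were not tested. The number of libraries, 4 a sequence with durations as the replicates, limits the size of change that single genes can show.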
